A study of Arabidopsis thaliana with 26 samples.

Results

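LHCB4.1 (AT5G01530), LHCB4.2 (AT3G08940) and LHCB4.3 (AT2G40100) are the Arabidopsis genes for CP29, an antenna protein of photosystem II. Each was followed through the probe set annotated to it, exactly 1 per gene among the 22746 that are not controls. All 3 were bright enough to be among the 16154 probe sets tested. Arabidopsis thaliana plants of accession Col-0 from a growth room were used, and total RNA of their leaves was hybridised to ATH1 arrays, on which a set of short probes reads each transcript. Developing leaves were sampled after 2, 4, 12, 24, 48 and 96 h of a treatment titled elevated CO2 with ambient light (n = 4 arrays per time), and mature leaves after 24 h (n = 2). All 26 arrays came from that treatment and none from untreated plants, so no value tests the effect of CO2. The labels state neither which of the leaves were held in the raised CO2 nor the clock times of sampling. The labels number the arrays of a group without saying that they came from separate plants, so the p-values rest on a spread between samples that may be technical only.

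Light-harvesting complex proteins bind chlorophyll and pass absorbed energy to the reaction centres in the thylakoid membrane. In photosystem II most of the antenna is made of trimers of the major complex, and monomeric minor proteins sit between these trimers and the core. CP29 is one of the minor proteins: it binds next to the core, is needed for stable supercomplexes with the trimers, and takes part in the dissipation of excess energy. LHCB4.1 and LHCB4.2 encode very similar forms of it, whereas the form from LHCB4.3, also called LHCB8, lacks part of the C-terminal region. Antenna genes of the nucleus are known for transcript levels that follow light and the circadian clock.

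The paralogues followed different courses. At 12 h LHCB4.2 fell to 0.25 of its level at 2 h, as a ratio of means, while LHCB4.3 rose 2.14-fold and LHCB4.1 was 0.73 of its own level without passing the test. By 24 h LHCB4.2 had risen 4.70-fold from its level at 12 h, and LHCB4.3 had fallen to 0.64 of its level there. From 24 to 96 h LHCB4.3 rose again, 1.65-fold, and the other paralogues did not change past the threshold. In mature leaves LHCB4.3 was 2.01 times as high as in developing leaves at 24 h. Signals below are intensities in the deposited unit, scaled by the authors so that the trimmed mean of every array is 100. Changes are log2 differences ± SE of log2(intensity + 16), with p-values from limma adjusted by the Benjamini-Hochberg method over all probe sets tested, and a change was called at an adjusted p under 0.05. A level of one probe set was not set against that of another, since probe sets bind with different strength.

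**Figure D1:**
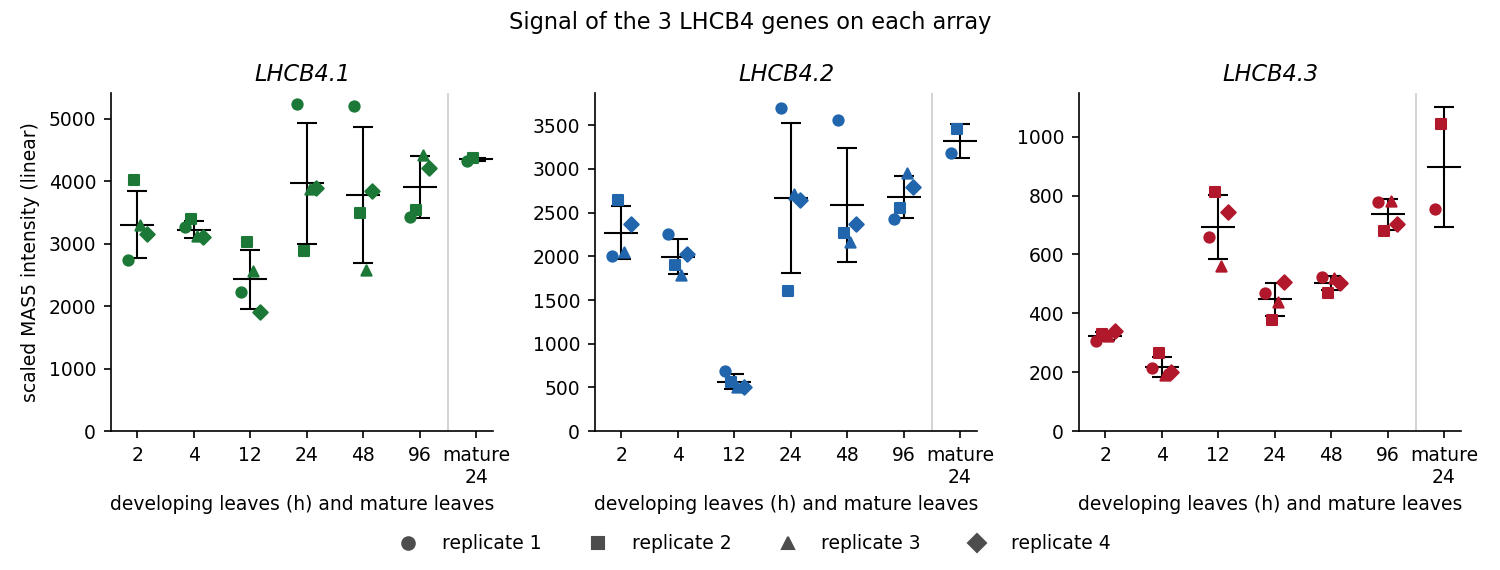
Scaled intensity (linear axis from 0) of LHCB4.1, LHCB4.2 and LHCB4.3 on each array, by hours in developing leaves and in mature leaves at 24 h. Symbols mark replicate numbers, long bars the group mean and whiskers the SD (n = 4, mature n = 2). The 4 arrays at 12 h are the lowest of all for LHCB4.2, between 508 and 688, and lie above all arrays at 2, 4, 24 and 48 h for LHCB4.3, between 562 and 811.

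LHCB4.2 had the widest course. Its 4 arrays at 2 h read 2008, 2649, 2054 and 2375, a mean of 2271 ± 300 (SD, n = 4). At 4 h they read 2255, 1900, 1788 and 2032, a mean of 1994 ± 201. At 12 h they read 688, 562, 511 and 508, a mean of 567 ± 84.5. All 4 arrays at 12 h lay below every other array of the series for this gene. The difference from 4 h was -1.79 ± 0.17 on the log2 scale (limma, adjusted p = 7.9e-09), and that from 2 h was -1.97 ± 0.17 (limma, adjusted p = 1.1e-09). Among the 16154 probe sets the fall from 2 h was the 36th largest.

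LHCB4.2 was back at 24 h. The arrays there read 3703, 1602, 2717 and 2643, a mean of 2666 ± 858. The groups at 12 and 24 h did not overlap, although the arrays at 24 h differed from each other by more than those of any other time. The rise was 2.15 ± 0.17 (limma, adjusted p = 1.4e-10). Against 2 h, the level at 24 h differed by 0.18 ± 0.17, with a 95% interval from -0.18 to 0.53 (limma, adjusted p = 0.625).

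LHCB4.3 went the other way at 12 h. Its arrays read 307, 330, 322 and 339 at 2 h, a mean of 324 ± 13.5, and 213, 265, 190 and 202 at 4 h, a mean of 218 ± 33.0. At 12 h they read 659, 811, 562 and 743, a mean of 694 ± 108. The 3 groups did not overlap, with 4 h lowest and 12 h highest. The change from 2 to 4 h was -0.55 ± 0.11 (limma, adjusted p = 0.0053). The rise from 4 to 12 h was 1.60 ± 0.11 (limma, adjusted p = 2.9e-11), and that from 2 to 12 h was 1.05 ± 0.11 (limma, adjusted p = 4.5e-08). The rise from 4 h ranked 35th of the 16154 probe sets.

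At 24 h the LHCB4.3 arrays read 469, 377, 438 and 507, a mean of 447 ± 54.9. They lay below all arrays at 12 h and above all arrays at 2 h. The change from 12 h was -0.61 ± 0.11 (limma, adjusted p = 0.00015). The change from 2 h was 0.44 ± 0.11 (limma, adjusted p = 0.013), a call that was lost when replicate 4 of the 24 h group was left out (0.38, adjusted p = 0.055).

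LHCB4.1 had the narrowest course. Its arrays read 2740, 4029, 3306 and 3149 at 2 h (mean 3306 ± 538) and 3277, 3392, 3121 and 3106 at 4 h (mean 3224 ± 136). At 12 h they read 2230, 3022, 2563 and 1903 (mean 2429 ± 478). The arrays at 12 h lay below all arrays at 4 h but overlapped those at 2 h. Neither difference passed the test, with -0.43 ± 0.17 against 4 h (limma, adjusted p = 0.070) and -0.45 ± 0.17 against 2 h (limma, adjusted p = 0.055). Both were called without replicate 2 of the 12 h group (-0.54, adjusted p = 0.032, and -0.56, adjusted p = 0.025), and the difference from 2 h was also called without replicate 1 of the 2 h group (adjusted p = 0.035).

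At 24 h the LHCB4.1 arrays read 5241, 2880, 3871 and 3899, a mean of 3973 ± 969. They overlapped the arrays at 12 h through replicate 2. The rise of 0.69 ± 0.17 from 12 h was the only call for this gene among the 10 contrasts (limma, adjusted p = 0.0032). It depended on the scaling: after quantile normalization between arrays it was 0.13 (adjusted p = 0.26). LHCB4.1 read 62.3 to 85.5% of the highest value on its arrays, and no saturation flags were used here.

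These calls stood against a background that was wide at 12 h. Of all probe sets tested, 2.04% were called for 4 h against 2 h, where 1 of the 3 LHCB4 genes was called. For 12 h against 4 h the share was 28.6%, and 2 of the 3 were called. For 12 h against 2 h it was also 28.6%, with the same 2 genes called. For 24 h against 12 h it was 29.3%, and all 3 were called, 2 higher and 1 lower. For 24 h against 2 h it was 9.21%, and LHCB4.3 was the 1 member called. In an F test over the 6 times 50% of probe sets were called, and so were all 3 members. The group means spanned 2.22 log2 for LHCB4.2 (adjusted p = 6.7e-11), 1.70 for LHCB4.3 (adjusted p = 3.8e-12) and 0.69 for LHCB4.1 (adjusted p = 0.011). The F test of LHCB4.1 was lost without replicate 4 of the 12 h group (adjusted p = 0.069).

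The difference between the paralogues was tested on their ratio within each array, which does not depend on how that array was scaled apart from the added 16. The log2 ratio of LHCB4.3 over LHCB4.2 was -2.74 ± 0.15 (SD, n = 4) at 2 h, -3.11 ± 0.24 at 4 h and 0.28 ± 0.29 at 12 h. It was -2.48 ± 0.38 at 24 h, -2.30 ± 0.30 at 48 h and -1.84 ± 0.15 at 96 h. The 4 arrays at 12 h lay between -0.06 and 0.54, above the 22 others, the highest of which was -1.62. Hence the ratio rose by 3.02 ± 0.16 (SE of the difference) from 2 to 12 h and changed by -2.76 ± 0.24 from 12 to 24 h.

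The log2 ratio of LHCB4.2 over LHCB4.1 was -0.53 ± 0.13 at 2 h, -0.69 ± 0.14 at 4 h and -2.06 ± 0.34 at 12 h. At 24, 48 and 96 h it was -0.60 ± 0.16, -0.53 ± 0.19 and -0.53 ± 0.06. The 4 arrays at 12 h lay below all others. By level LHCB4.1 ranked between 9 and 106 among the probe sets of its arrays, and whether such brightness lessened its measured fall was not tested. Outside 12 h this ratio moved little: 24 h differed from 2 h by -0.07 ± 0.10. The ratio of LHCB4.3 over LHCB4.1 was -3.27 ± 0.20, -3.80 ± 0.14 and -1.78 ± 0.34 at 2, 4 and 12 h, and -3.08 ± 0.26, -2.83 ± 0.41 and -2.38 ± 0.19 at 24, 48 and 96 h.

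Each of the 3 ratios differed between the 6 times in a permutation test of the F statistic over 24 arrays, with p adjusted over the 3 pairs. The adjusted p was 0.00024 for LHCB4.2 over LHCB4.1 and 1.5e-05 for each ratio with LHCB4.3, for which the unadjusted p of 1e-05 is the smallest that 100000 resamples can give. The 3 pairs were chosen with earlier results of these data known. The p-values of the ratios therefore describe the differing courses and are not independent evidence of them. Between 2 groups of 4 an exact two-sided permutation test cannot go below 0.029. All 3 ratios reached that p for 12 h against 2 h, 12 h against 4 h and 24 h against 12 h. Adjusted over the 30 tests made it became 0.066, so none of the 2-group exact tests passed. With limma on the within-array ratios, an alternative chosen after seeing the data, the same 9 changes were called, with adjusted p from 1.3e-19 to 3.3e-06. In that fit every tested probe set was divided by the second paralogue of the pair, and the adjustment ran over all these ratios. All of them share the changes of that paralogue, so these p-values cannot be compared with those adjusted over 30 tests.

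The labelled hours 24, 48 and 96 are whole days apart, and 2, 4 and 12 h are not, so hours of treatment and time of day cannot be told apart among the early times. The labels do not say that all treatments began at one hour of the day. LHCB4.3 read 522, 470, 519 and 502 at 48 h (mean 503 ± 24.0) and 779, 681, 781 and 703 at 96 h (mean 736 ± 51.6). All arrays at 96 h lay above all arrays at 24 and 48 h. The change was 0.17 ± 0.11 from 24 to 48 h (limma, adjusted p = 0.64), 0.53 ± 0.11 from 48 to 96 h (limma, adjusted p = 0.0074) and 0.70 ± 0.11 from 24 to 96 h (limma, adjusted p = 0.00012).

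LHCB4.1 read 5211, 3500, 2578 and 3841 at 48 h (mean 3783 ± 1092) and 3428, 3549, 4430 and 4219 at 96 h (mean 3907 ± 492). LHCB4.2 read 3561, 2267, 2162 and 2375 at 48 h (mean 2591 ± 653) and 2423, 2556, 2959 and 2795 at 96 h (mean 2683 ± 240). For both genes the 3 groups overlapped. The change from 24 to 96 h was 0.00 ± 0.17 for LHCB4.1, with a 95% interval from -0.36 to 0.36, and 0.07 ± 0.17 for LHCB4.2, with an interval from -0.29 to 0.42.

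No probe set was called for 48 h against 24 h (0% of those tested by limma, with 1655 at an unadjusted p under 0.05), and none of the 3 genes. For 96 h against 48 h 3.53% were called and for 96 h against 24 h 15%, and in both LHCB4.3 was the 1 member called. The ratio of LHCB4.3 over LHCB4.1 rose by 0.70 ± 0.16 and that of LHCB4.3 over LHCB4.2 by 0.64 ± 0.21 from 24 to 96 h. The groups did not overlap in either ratio (exact permutation p = 0.029, 0.066 after adjustment over 30 tests). With limma on the ratios neither was called (adjusted p = 0.087 and 0.16).

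In mature leaves LHCB4.3 read 754 and 1041, a mean of 898 ± 203 (n = 2). Both values lay above all 4 developing arrays at 24 h, the highest of which was 507. The difference was 0.97 ± 0.14 (limma, adjusted p = 1.2e-06). An exact permutation test of 2 arrays against 4 cannot go below 0.067, the p it gave. LHCB4.1 read 4335 and 4370 in mature leaves (mean 4352 ± 24.9), within the range of developing leaves at 24 h. LHCB4.2 read 3182 and 3454 (mean 3318 ± 192), also within that range.

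The differences of mature from developing leaves at 24 h were 0.16 ± 0.21 for LHCB4.1 (limma, adjusted p = 0.54) and 0.37 ± 0.21 for LHCB4.2 (limma, adjusted p = 0.14). The value of LHCB4.2 moved with single arrays of the developing 24 h group: it was 0.55 and called without replicate 1 (adjusted p = 0.021), and 0.15 and not called without replicate 2 (adjusted p = 0.51). Of all probe sets 54.8% were called in this contrast, and their median change was -0.10, so a single call among 3 genes is not above the background. Against developing leaves at 96 h 43.4% were called and none of the LHCB4 genes, with changes of 0.16 ± 0.21, 0.31 ± 0.21 and 0.27 ± 0.14 for LHCB4.1, LHCB4.2 and LHCB4.3. For LHCB4.3 that difference was decided by which mature array was kept: it was 0.49 with replicate 2 alone (adjusted p = 0.026) and 0.037 with replicate 1 alone (adjusted p = 0.90). In both a lone array is assumed to vary like the other groups.

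**Figure D2:**
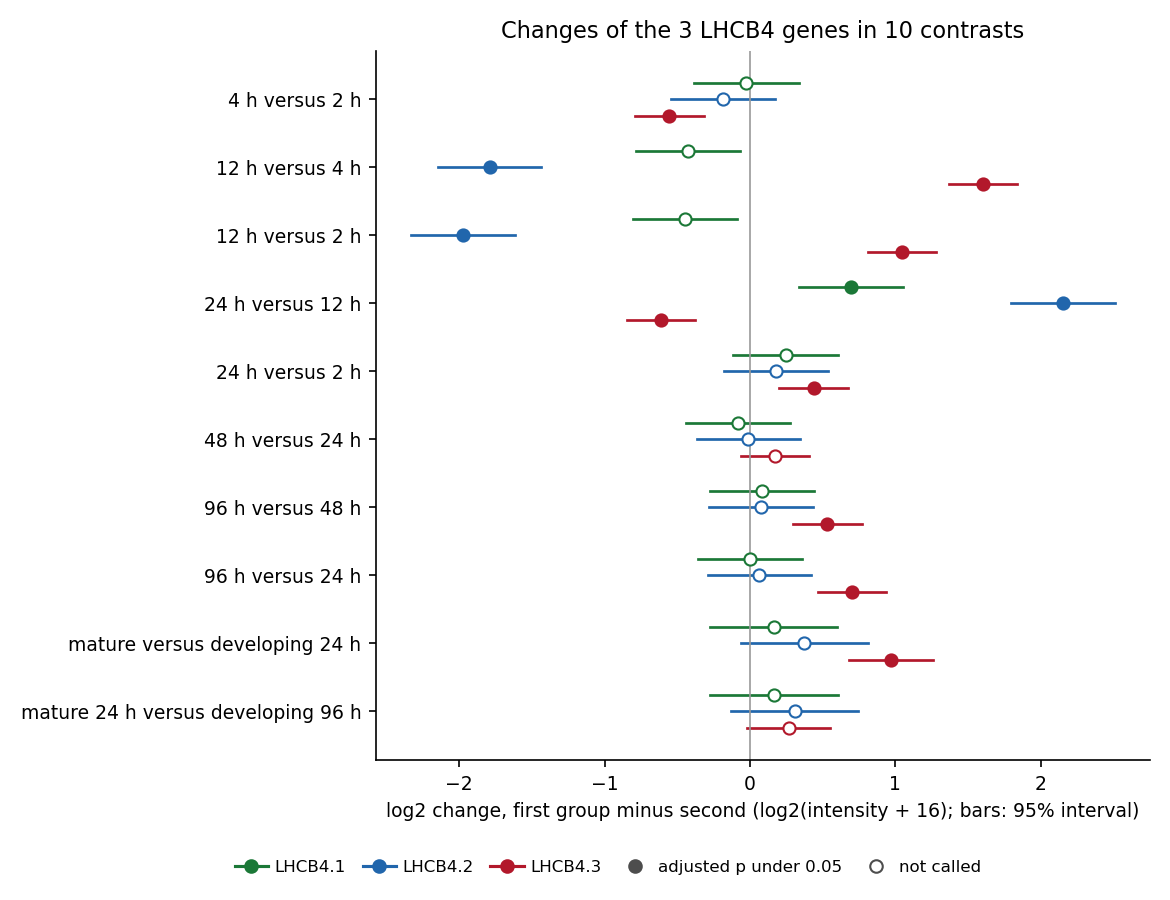
Log2 changes (horizontal axis, with 95% intervals from limma) of the LHCB4 genes in the 10 contrasts. Filled points passed an adjusted p under 0.05. LHCB4.3 has 8 filled points, 6 to the right of 0 and 2 to the left, LHCB4.2 has 3 and LHCB4.1 has 1. Contrasts that share a group are not independent.

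Ordered by level, LHCB4.1 was lowest at 12 h, followed by 4, 2, 48, 96 and 24 h and mature leaves, and only 12 and 4 h were neighbours without overlap. LHCB4.2 had the order 12, 4, 2, 48, 24 and 96 h and mature leaves. Its 12 h arrays were apart from those at 4 h, the mature arrays were apart from those at 96 h, and all neighbours between overlapped. LHCB4.3 had the order 4, 2, 24, 48, 12 and 96 h and mature leaves. For it 4 and 2 h, 2 and 24 h, and 48 and 12 h did not overlap, while 24 and 48 h did, as did 12 h, 96 h and mature leaves in turn.

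The arrays were alike in their totals. Array medians lay between 39.7 and 47.4, replicates correlated at 0.956 to 0.987 across probe sets, and no columns were identical. The cre spike-in, a control transcript added to each sample, read 4220 and 3967 on replicate 1 of the developing 24 and 48 h groups against a median of 1315. These arrays held the highest values of LHCB4.1 and LHCB4.2 in the series. Without them no contrast of an LHCB4 gene lost its call, and some gained one. The changes of LHCB4.1 at 12 h stayed at -0.43 against 4 h and -0.45 against 2 h and were called (limma, adjusted p = 0.021 and 0.015). Neither contrast holds these arrays, so only the fitted spread and the adjustment differed there. LHCB4.2 in mature against developing leaves at 24 h became 0.55 and was called (limma, adjusted p = 0.0077). Their part in the spread was not tested otherwise.

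Cell type markers checked the tissue and gave levels to set beside the LHCB4 genes. RCA, Rubisco activase of mesophyll chloroplasts and 1 of 5 mesophyll genes with a probe set of its own, read between 2234 and 5543 on all arrays. RCA rose by 0.69 ± 0.17 from 12 to 24 h (limma, adjusted p = 0.0027), where LHCB4.1 rose by 0.69 and LHCB4.2 by 2.15, and was not called for 12 h against 4 h (-0.21 ± 0.17) or 2 h (-0.29 ± 0.17). Nor was it called for 96 h against 24 h (-0.19 ± 0.17) or for mature against developing leaves at 24 h (-0.02 ± 0.21). The root hair gene EXPA7 (1 of 3) stayed between 5.23 and 37.1. At these dim readings it changed by -0.67 ± 0.18 from 24 to 96 h (limma, adjusted p = 0.013). In mature against developing leaves at 24 h it changed by -0.61 ± 0.22 (limma, adjusted p = 0.023). The list for the epidermis and that for the xylem (3 genes each) had no such probe set. Markers of some leaf cells were higher where LHCB4.3 was, at 96 h and in mature leaves: SWEET11, a sucrose exporter of the phloem (1 probe set), had a mean of 109 ± 22.0 in developing leaves at 24 h, 166 ± 18.1 at 96 h and 626 ± 21.3 in mature leaves. TRY, a trichome regulator, rose by 0.92 ± 0.16 from developing to mature leaves at 24 h (limma, adjusted p = 2.4e-05).

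Markers of dividing cells moved the other way. AUR1 and AUR2, mitotic kinases and 2 of 4 such genes, changed by -1.65 ± 0.15 and -1.77 ± 0.12 in mature leaves (limma, adjusted p = 5.8e-10 and 2.9e-12), and by -0.46 ± 0.13 and -1.04 ± 0.10 from 24 to 96 h (adjusted p = 0.013 and 1.8e-07). Their summed intensity was 201 to 277 at 24 h, 124 to 176 at 96 h and 53.6 to 57.3 in mature leaves. Those tested of the guard cell lineage fell in mature leaves too: SPCH, which starts the lineage, changed by -2.77 ± 0.20 and FMA, which acts at its last step, by -0.56 ± 0.15 (limma, adjusted p = 6.0e-12 and 0.0018). The summed signal of the 3 lineage genes, with MUTE, which was too dim to be tested, was 159 to 229 in developing leaves at 24 h and 38.6 to 43.1 in mature leaves. At 12 h, where LHCB4.2 was low and LHCB4.3 high, AUR1 and AUR2 were 0.45 ± 0.13 and 0.54 ± 0.10 above 2 h (adjusted p = 0.0073 and 0.00015), and SWEET11, TRY, SPCH and FMA passed no test against 2 h. Against 4 h, where LHCB4.3 rose by 1.60, SWEET11 was higher by 0.38 ± 0.13 and SPCH changed by -0.44 ± 0.17 (limma, adjusted p = 0.024 and 0.047), and TRY, FMA, AUR1 and AUR2 were not called. The part of cell makeup in the LHCB4 levels was not tested, and in whole leaves fewer cells of a type and less RNA per cell cannot be told apart.

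The rest of the pathway could be followed only in part, because many of its genes had no probe set annotated to 1 gene. Of 15 antenna genes of photosystem II the 3 LHCB4 genes alone had one, and the other 12 were not analysed here. The same holds for all 6 antenna genes of photosystem I and for all 9 genes of thylakoid protein phosphorylation and antenna insertion. Of 15 genes for core and small subunits of photosystem II, 3 were tested. At 12 h against 2 h, 2 of the 3 fell and 0 rose, with a median change of -0.53 against 0.03 for all probe sets, of which 28.6% were called. They were PSBY, a small membrane subunit, with -0.53 ± 0.13 (limma, adjusted p = 0.0023), and PSB27, an assembly factor, with -0.55 ± 0.10 (limma, adjusted p = 9.9e-05). All 3 rose from 12 to 24 h, where 29.3% of all probe sets were called, with a median of 0.73 against -0.04, and none was called for mature against developing leaves at 24 h. After quantile normalization 2 of the 3 were called from 12 to 24 h. LHCB4.2 and these genes were low together at 12 h, with LHCB4.2 changing by -1.97 where PSBY and PSB27 changed by about -0.5.

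Of 20 genes of chlorophyll synthesis 6 were tested, and they did not share one course. At 12 h against 2 h 1 rose, 1 fell and 4 did not pass the test, with a median of 0.00 and a share of calls near the 28.6% of all probe sets. CHLP, the geranylgeranyl reductase that makes the phytyl tail, changed by -0.71 ± 0.11 (limma, adjusted p = 7.0e-06) and rose by 0.98 ± 0.11 from 12 to 24 h (limma, adjusted p = 3.7e-08). PORB, a light-dependent protochlorophyllide oxidoreductase, was 0.41 ± 0.14 above 2 h at 12 h (limma, adjusted p = 0.027), after a peak at 4 h that was 1.16 ± 0.14 above 2 h (adjusted p = 4.5e-06). PORB thus rose at 4 h, where LHCB4.3 fell. In mature leaves at 24 h 3 of the 6 were lower and 0 higher, with a median of -0.36 against -0.10, a share of calls near the 54.8% of all probe sets. GSA1 and HEMB1, which act early in the pathway, changed by -0.85 ± 0.12 and -0.94 ± 0.11, and CHLI2, a subunit of magnesium chelatase, by -0.59 ± 0.16 (limma, adjusted p = 9.9e-07, 6.1e-08 and 0.0025).

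**Figure D3:**
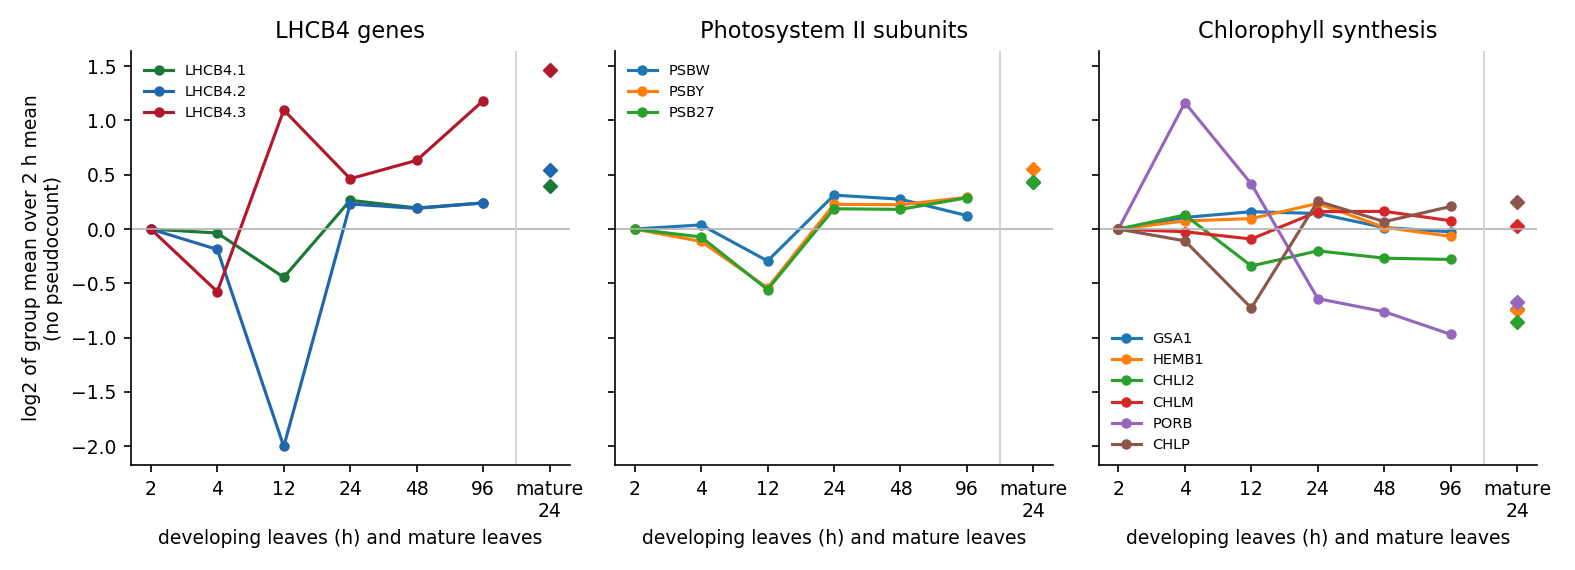
Log2 of each group mean over the mean at 2 h, from intensities with no pseudocount, for the LHCB4 genes and for every tested gene of the photosystem II subunit and chlorophyll synthesis lists. Lines join the 6 times in developing leaves and diamonds are mature leaves at 24 h. At 12 h LHCB4.2 is at -2.0, LHCB4.3 at 1.1, PSBY at -0.54 and PSB27 at -0.56.

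Among 10 genes of photoprotection and LHC-like proteins 2 were tested, and neither was called at 12 h against 2 h. LIL3.1, an LHC-like protein of chlorophyll synthesis, changed by -0.55 in mature against developing leaves at 24 h (called), and the other was not called. Of 11 regulators of antenna genes only HYH, a bZIP factor of light signalling and a homologue of HY5, was tested. HYH had means of 28.7 at 2 h, 23.9 at 12 h and 114 at 24 h, and 49.5 in mature leaves. Its means at 2 and 12 h are dim, below the array medians of 39.7 to 47.4. Between these dim readings HYH was not called for 12 h against 2 h (-0.17 ± 0.14, limma, adjusted p = 0.41). HYH rose by 1.71 ± 0.14 from 12 to 24 h (limma, adjusted p = 1.5e-10) and changed by -1.0 ± 0.17 in mature leaves (limma, adjusted p = 1.4e-05). Of 15 clock genes only GI, an evening gene, was tested. GI had means of 56.6 at 2 h, 161 at 4 h, 11.7 at 12 h and 46.8 at 24 h, so that at 12 h GI and LHCB4.2 were both low, with -1.41 ± 0.12 for GI against 2 h (limma, adjusted p = 9.3e-10).

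The course of each paralogue was set against the 6019 candidates, tested probe sets of 1 gene with a mean above the median, by Pearson correlation over all 26 arrays. These correlations are descriptions, since all genes share the arrays and the groups. LHCB4.1 and LHCB4.2 correlated at 0.82, and LHCB4.2 ranked 27th among the candidates for LHCB4.1. LHCB4.3 correlated at 0.12 with LHCB4.1 and at -0.11 with LHCB4.2. LHCB4.3, the paralogue with the shortened protein, thus followed neither of the other two closely over these arrays.

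The genes with courses most like LHCB4.1 were PSBY (0.94), RCA (0.94), PSAN, a subunit of photosystem I (0.92), atpB of the plastid ATP synthase (0.90) and GAPC2, a cytosolic dehydrogenase of glycolysis (0.89). All were bright, with group means of 1301 or more, and the correlations include scatter between arrays of a group. At 24 and 48 h the SD was 969 and 1092 for LHCB4.1 and 1060 and 1152 for RCA. The part of such scatter in the likeness was not tested. Those most opposite to LHCB4.1 were AT4G24330 (-0.88), AT3G15710 (-0.87) and AT4G16444 (-0.86), known here by locus code. The genes most like LHCB4.2 were AT1G13650 (0.94), AT5G57345 (0.94), PSB27 (0.93), AT3G46630 (0.93) and PSAN (0.93). Computed on ranks (Spearman), AT1G13650, AT5G57345 and AT3G46630 correlated less, at 0.78, 0.85 and 0.68. PSB27 and PSAN were both at 0.92 on ranks. The part of the low 12 h arrays in the Pearson values was not tested. AT1G13650 had group means of 152 at 2 h, 4.28 at 12 h and 152 at 24 h, and AT5G57345 had 447, 115 and 473. Both had their lowest mean at 12 h, as LHCB4.2 did. The most opposite were AT1G78010 (-0.93), AT4G17140 (-0.93) and AT1G75800 (-0.91), and AT4G17140 had its highest mean, 255, at 12 h. On ranks these genes correlated at -0.74, -0.71 and -0.75.

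For LHCB4.3 the most alike were AT5G44580 (0.94), AT1G78020 (0.94), AT5G38980 (0.94), AT4G37560 (0.92) and AT4G34630 (0.92). AT5G44580 had group means of 140 at 2 h, 107 at 4 h, 393 at 12 h, 265 at 24 h, 700 at 96 h and 956 in mature leaves. AT1G78020 had 146, 97.2, 444, 247, 425 and 499 in the same groups. Both shared the low at 4 h, the high at 12 h and the climb from 24 h to 96 h and to mature leaves. The most opposite were AT3G56330 (-0.95), AT2G18330 (-0.94) and AT5G02050 (-0.93). AT5G02050 had means of 376 at 4 h, 122 at 12 h and 110 in mature leaves. None of the 5 genes most like LHCB4.3 was among the 5 most like LHCB4.1 or LHCB4.2. Lists of 5 drawn from 6019 candidates seldom overlap, so this adds nothing to the low correlations of LHCB4.3 with the other paralogues.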

How the data were processed

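The deposited values are signal intensities on a linear scale; per the submitters' processing notes, the authors used MAS5, with no version given. On every array the mean after trimming 2% of values at either end was 100. No background value or detection call was used here. Genes were named from a platform annotation updated through RefSeq genes of TAIR10.1: 13513 probe sets had 1 gene, 503 several and 8794 none listed. No coordinates are given, since the sources used here name no genome build.

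Computed here were log2(intensity + 16), so that changes of dim probe sets are understated, and a filter that kept probe sets above their array's 40th percentile on at least 2 arrays. One mean per group (7) was fitted to the 26 arrays with lmFit and eBayes(trend = TRUE) in limma 3.58.1 (R 4.3.3), without a replicate block. Benjamini-Hochberg adjustment ran over the 16154 probe sets that passed. The median half-width of a 95% interval was 0.27 log2 between groups of 4 and 0.32 against mature leaves. The number of arrays limits the precision. On data simulated for 12 h against 2 h with 16154 probe sets, 50 probe sets each were changed by 0.5, 1, 2 and 4 log2. The fit recovered 20 of 50 changes of 0.5 log2 and 49 of 50 of 1 log2, with 13 false calls. In the measured contrast 28.6% of probe sets were called, a far larger share than was changed in the simulation, so recovery there may differ.

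The 3 genes, the pairs, the contrasts and the 133 list genes were chosen with earlier results of these data known. Named were the 3 LHCB4 genes, the 2 highest and 2 lowest called members of each list at 12 h against 2 h and in mature against developing leaves, and, by correlation, the 5 genes most like and 3 least like each LHCB4 gene. The other members of the lists plotted, MUTE and the courses quoted among the similar genes, were chosen after their values were seen. Alternatives were other pseudocounts, no filter, quantile normalization, array weights, a replicate block, only the 2 groups compared, exact permutation tests, and leaving out arrays.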

Additional observations from a re-analysis of the deposited data

Results flagged for a closer look

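LHCB4.2 read 3561.41 on replicate 1 of the developing leaves at 48 h, while the 3 other arrays of that group lay between 2162 and 2375, so that a single array stood apart from its group. It was the only such value among the 36 groups of values checked, and chance alone gives about 1 in 20. On the same array LHCB4.1 read 5211, the highest of its group, and the cre spike-in 3967 against a median of 1315. LHCB4.3 read 522 there, also the highest of its group, the others lying between 470 and 519.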

How the results depend on the processing

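No call of an LHCB4 gene changed direction. Of the 294 values of single genes under other settings 279 kept their side of the threshold, as did 293 of 300 with 1 array left out. LHCB4.1 at 12 h against 2 h was called with quantile normalization (-0.25), array weights (-0.47), only the 2 groups or without the 2 arrays of high cre signal (-0.45), and ranged from -0.56 to -0.34 with 1 array left out. At 12 h against 4 h it was called with array weights (-0.44) and with only the 2 groups, without those 2 arrays, or by the unadjusted exact test (-0.43), with a range from -0.54 to -0.32. Its rise from 12 to 24 h lost its call with quantile normalization (0.13), under which 24 h lay below 2 h (-0.12, not called), and in the exact test (0.69, p = 0.057). Its span over the 6 times was 0.58 to 0.84 with 1 array left out. LHCB4.2 in mature against developing leaves was called with quantile normalization (0.39), array weights (0.34) and without the 2 arrays (0.55), with a range from 0.15 to 0.55, and against 96 h with only the 2 groups (0.31). LHCB4.3 ranged from 0.38 to 0.51 for 24 h against 2 h and from 0.037 to 0.49 for mature leaves against 96 h, and its 0.97 against developing 24 h missed the threshold in the exact test, which cannot pass with 2 arrays. Limma on the ratios, chosen after seeing the data, called 10 of 30: -1.37, -1.52 and 1.46 for LHCB4.2 over LHCB4.1, 2.03, 1.5 and -1.30 for LHCB4.3 over LHCB4.1, and 3.39, 3.02 and -2.76 for LHCB4.3 over LHCB4.2 (12 h against 4 h, 12 h against 2 h, 24 h against 12 h), and 0.81 for LHCB4.3 over LHCB4.1 in mature against developing leaves. The cause of these shifts was not tested.

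Shared replicate numbers were not taken as pairing, since the labels do not say what they stand for. The array codes in the titles do run through all developing times of one replicate number before the next. Same-numbered deviations correlated at -0.17 to 0.52 (median 0.04), with 23 of 72 over 0.1. As a hint of pairing from the data, 14 of 26 arrays correlated best with their own number out of 4. The replicate block also joined mature arrays 1 and 2 to developing arrays of those numbers, although their codes lie outside those runs. A replicate block changed no call of an LHCB4 gene (-1.97 for LHCB4.2 and 1.05 for LHCB4.3 at 12 h against 2 h). It moved the count over all probe sets for 48 h against 24 h from 0 to 19, array weights to 500, a pseudocount of 64 to 3, and leaving out the 2 arrays to 15. Array weights gave 565 in place of 330 for 4 h against 2 h and 975 in place of 571 for 96 h against 48 h, which was 380 without the 2 arrays. In mature against developing leaves 2 or 3 photosystem II subunit genes were called with quantile normalization, array weights or without the 2 arrays, in place of 0. For 96 h against 24 h 2 of them were called with quantile normalization, in place of 0. With 2 arrays of mature leaves, small differences of that group could not be resolved. Whether the brightness of LHCB4.1 limited its measured differences was not tested.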
